A study of Mus musculus with 24 samples.

Results

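The Polycomb genes described here are 9 members of the Polycomb repressive complexes, namely Cbx2, Cbx6, Cbx7, Cbx8, Bmi1, Ring1, Rnf2, Ezh1 and Ezh2, out of 22282 genes measured by RNA sequencing. They were taken by name from a list selected on their FPKM in these same 8 sample groups, and their levels are therefore given as a description, without a p-value. FPKM counts fragments per length of transcript and per number of mapped fragments. All 9 passed the filter on low values, a mean of at least 1 FPKM over the 24 libraries.

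The study asked how non-vascular amniotic cells of C57BL/6J mice become endothelial cells (ECs), and each of its 8 groups had 3 libraries. MACs were cultured cells from the amniotic fluid of E11.5 to E13.5 embryos, each culture isolated separately from embryos of mixed sex. RACVECs were MACs transduced with lentiviruses for the mouse Ets factors Etv2, Erg and Fli1 and grown in EC medium with an inhibitor of TGF-β signalling, whereas MACs were first grown in amniotic cell medium. Akt-MACs and Akt-RACVECs also carried a lentivirus for a constitutively active, myristoylated Akt, a kinase that promotes survival, and Sox17-RACVECs were RACVECs that also received mouse Sox17, an endothelial transcription factor. Akt-LECs and Akt-liver ECs were lung and liver ECs captured on anti-CD31 beads, transduced with the same Akt, and sorted again for VEcad and CD31 after culture. LSECs were liver ECs purified directly by FACS, without culture or transgene. The study describes the donors of Akt-LECs and LSECs as adult mice, and the labels give no age.

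Polycomb proteins keep genes silent through chromatin and hold cell identity from a cell to its daughters. In Polycomb repressive complex PRC2, the methyltransferase Ezh1 or Ezh2 works with Eed and Suz12 to methylate histone H3, and Ezh2 is best known from dividing cells and Ezh1 from resting ones. In canonical PRC1, a Cbx protein binds that methyl mark and a RING enzyme, Ring1 or Rnf2, paired with a Pcgf protein such as Bmi1, ubiquitinates histone H2A. The Cbx proteins compete for the same place in the complex, so cells differ in which of them they use.

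Cbx2 (chr11:118884276-118892584, plus strand, mm9) and Cbx8 (chr11:118897619-118902283, minus strand) lie 5034 bases apart. Cbx6 (chr15:79654326-79665118) and Cbx7 (chr15:79746237-79801549) are both on the minus strand, 81118 bases apart. Cbx6 overlaps Npcd on the same strand, so fragments in the shared part could have been assigned to either, and Npcd itself was at 11.1 to 80.1 FPKM. Ezh1 (chr11:101052429-101087777) and Ezh2 (chr6:47480273-47545340) are on the minus strand, and Ezh2 has an antisense gene, Gm17629, whose reads an unstranded kit cannot tell apart. Ring1 is at chr17:34157737-34161625 and Rnf2 at chr1:153316536-153347953, both on the minus strand, and Bmi1 at chr2:18598645-18608256 on the plus strand. All 9 are protein-coding genes, at their GENCODE M1 positions.

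The promoters of 3 members are shown because Cbx7 covered the widest range of ratios among the members and because Ezh1 and Ezh2 were ordered in opposite ways in LSECs and in most cultured ECs. Each is the 250 bases before the start in RefSeq, 5′ to 3′ on the strand of the gene in GRCm38.p6, with CG dinucleotides in capitals. Cbx7 is from chr15:79932647-79932896, Ezh1 from chr11:101226464-101226713 and Ezh2 from chr6:47595031-47595280.
Cbx7: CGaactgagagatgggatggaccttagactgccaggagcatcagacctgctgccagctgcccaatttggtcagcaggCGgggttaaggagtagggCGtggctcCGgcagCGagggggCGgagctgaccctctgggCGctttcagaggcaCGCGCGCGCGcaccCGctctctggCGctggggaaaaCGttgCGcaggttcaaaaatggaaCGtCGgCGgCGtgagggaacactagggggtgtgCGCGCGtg
Ezh1: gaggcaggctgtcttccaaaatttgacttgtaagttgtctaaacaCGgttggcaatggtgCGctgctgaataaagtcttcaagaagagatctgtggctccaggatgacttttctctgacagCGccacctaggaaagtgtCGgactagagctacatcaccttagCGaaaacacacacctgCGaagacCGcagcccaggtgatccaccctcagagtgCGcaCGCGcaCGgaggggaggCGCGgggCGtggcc
Ezh2: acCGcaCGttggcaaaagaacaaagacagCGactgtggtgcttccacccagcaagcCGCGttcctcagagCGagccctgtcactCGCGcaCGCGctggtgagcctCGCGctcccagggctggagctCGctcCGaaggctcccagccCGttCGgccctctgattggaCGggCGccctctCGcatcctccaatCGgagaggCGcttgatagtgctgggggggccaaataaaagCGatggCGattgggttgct

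These stretches hold 23 CG in Cbx7, 14 in Ezh1 and 23 in Ezh2, against a median of 6 over 32851 promoters. A RefSeq promoter was found for 8 of the 9 members, and their counts of CG ran from 14 in Ezh1 to 30 in Ring1. The E2F motifs TTTCCCGC, TTTGGCGC, TTTCGCGC and TTTGCCGC were searched on both strands of the 300 bases that also take in the 50 after the start. They matched 2.26% of all promoters and 1 of these 8, that of Ezh2, where the match lies after the start. The Ets motif CCGGAAGT was in 3.89% of all promoters and in 0 of the 8. A match or its absence is a description of the letters in this window.

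Some libraries need care. The library labelled Sox17-RACVEC 2 listed the transgene Etv2 at 0, whereas the other 8 libraries of Etv2-transduced groups held 127 to 860 FPKM, and over all genes it was closest to Akt-RACVEC 3 (r = 0.970) and not to its own group (r at most 0.873). Such closeness was common, since 13 of the 24 libraries were closest to a library of another group. Among them was RACVEC 2, closest to Sox17-RACVEC 1 (r = 0.961, against at most 0.921 in its own group). Sox17 was at 5.09, 40.1 and 200.1 FPKM in Sox17-RACVECs 1 to 3 and listed at 0 in all RACVECs. Erg, another transduced factor, was at 3.91, 13.8 and 0.90 FPKM in RACVECs and 395, 1002 and 418 FPKM in Akt-RACVECs. In Sox17-RACVECs Erg was at 4.49, 387 and 0 FPKM. By qPCR the study found that Akt did not change the transcripts of the Ets factors. Akt-LEC 1 and Akt-liver EC 1 were closest to each other (r = 0.949) and had Col1a1, a collagen of fibroblasts, at 1065 and 556 FPKM against at most 5.66 in the other 4 libraries of these groups. Summed over 6 endothelial markers, MACs held 47.2 to 83.9 FPKM, RACVECs 1925 to 4274 and LSECs 14692 to 16726. The 5 macrophage markers summed to 0.79 to 14.7 FPKM in MACs but 847, 10189 and 32105 in Akt-MACs 1 to 3, with 4 of 5 called higher, and to 7327 to 11747 in LSECs. In MACs, Adgre1, Marco and Clec4f were at 0 in every library, and in Akt-MACs only Clec4f, the marker of liver macrophages, was. LSECs also held 2366 to 12931 FPKM of 6 hepatocyte markers and 10274 to 10897 of 4 erythroid markers. In bulk RNA, fewer cells of a type and less RNA per cell cannot be told apart.

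The plot of all libraries shows which genes separated the groups. Cbx7 ran from 0.85 to 34.5 FPKM and Ezh1 was highest in LSECs, whereas Cbx8 stayed between 10.4 and 30.6 FPKM in every library and Bmi1 between 85.6 and 216 FPKM. Of the mean levels over 24 libraries, Cbx6 was the highest at 176 FPKM and Cbx2 the lowest at 11.1 FPKM.

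**Figure D1:**
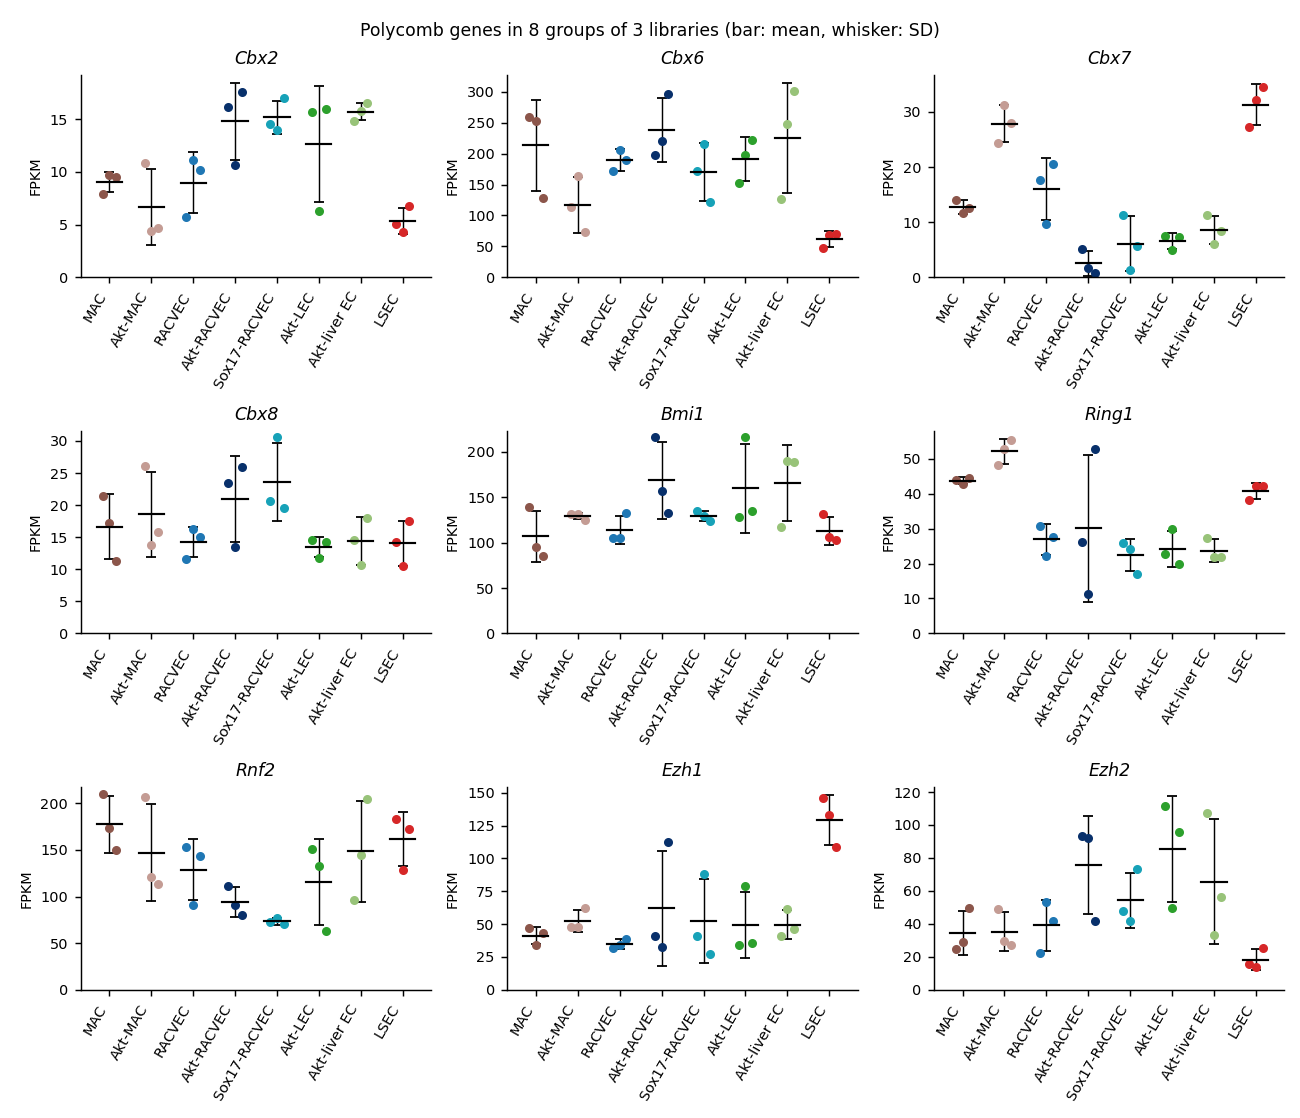
FPKM (vertical axis, linear from 0) of the 9 Polycomb genes by group. Points are libraries 1 to 3 from left to right, bars are means and whiskers SD (n = 3). Cbx7 is highest in LSECs and Akt-MACs, Ezh1 in LSECs, and Cbx6 and Ezh2 have their lowest means in LSECs.

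Among the chromobox proteins, Cbx7, which reads the methyl mark laid down by PRC2, differed most between groups. LSECs held 27.2, 32.2 and 34.5 FPKM of Cbx7 and Akt-MACs 24.4, 31.2 and 28.1 FPKM, and these 2 groups overlapped each other and lay above every other library. RACVECs followed at 17.7, 9.74 and 20.6 FPKM and overlapped MACs at 14.1, 11.6 and 12.7 FPKM. Akt-liver ECs were at 11.2, 6.10 and 8.47 FPKM, Akt-LECs at 7.55, 4.89 and 7.22 FPKM and Sox17-RACVECs at 11.2, 1.38 and 5.69 FPKM, and these 3 groups overlapped. The lowest mean was that of Akt-RACVECs, at 5.15, 1.74 and 0.85 FPKM, and they overlapped Sox17-RACVECs and Akt-LECs.

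Cbx7 stood on opposite sides of its Akt-free parent in the amniotic and in the converted cells. In Akt-MACs it was higher than in MACs, with no overlap, by 1.07 ± 0.49 (log2 of FPKM + 1, SE of the fit), and in Akt-RACVECs it was lower than in RACVECs by 2.37 on the same scale (SE 0.49), again with no overlap. The macrophage markers moved with the first of these, and their part in it was not tested. Akt-RACVECs had 5.35 to 151 FPKM of those markers and RACVECs 8.95 to 304 FPKM.

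Cbx6, the most abundant of these 4 Cbx genes in every group, ran the other way. LSECs were lowest at 47.3, 68.4 and 70.4 FPKM, below every library of every other group. Akt-MACs came next at 114, 164 and 73.5 FPKM, with MACs at 258, 253 and 128 FPKM, so that MAC 3 overlapped the Akt-MACs. RACVECs were at 172, 207 and 190.0 FPKM and Akt-RACVECs at 198, 220.2 and 296 FPKM. Akt-LECs were at 153, 198 and 222 FPKM, Akt-liver ECs at 127, 248 and 301 FPKM and Sox17-RACVECs at 172, 216 and 122 FPKM, all overlapping RACVECs. Over the 24 libraries the log2 levels of Cbx6 and Cbx7 had a Pearson r of -0.66, and of -0.52 over the 21 libraries without LSECs.

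Cbx2, another reader of the methyl mark, was low throughout. Akt-liver ECs held 14.9, 15.8 and 16.5 FPKM and LSECs 5.04, 4.34 and 6.72 FPKM, without overlap. Akt-RACVECs were at 16.2, 10.6 and 17.6 FPKM, against 10.8, 4.43 and 4.68 FPKM in Akt-MACs, where Akt-MAC 1 lay just above Akt-RACVEC 2. Sox17-RACVECs at 14.6, 13.99 and 16.98 FPKM lay above all RACVECs at 5.71, 11.1 and 10.2 FPKM, and MACs were at 7.95, 9.68 and 9.54 FPKM. Akt-LECs were split, at 15.7, 6.33 and 16.02 FPKM.

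Cbx8, its neighbour on chromosome 11, had its highest mean in Sox17-RACVECs (23.6 ± 6.11 FPKM, SD, n = 3) and its lowest in Akt-LECs (13.51 ± 1.57 FPKM), and each group overlapped the next in order. Sox17-RACVECs at 20.6, 30.6 and 19.5 FPKM did not overlap RACVECs at 11.7, 16.2 and 15.0 FPKM. The log2 levels of Cbx2 and Cbx8 had an r of 0.44 over the 24 libraries.

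Since FPKM is per length, these 4 Cbx genes can be set against each other within a library, free of its scaling. Of the summed FPKM of Cbx2, Cbx6, Cbx7 and Cbx8, Cbx7 made up 27.9 ± 1.13% in LSECs (SD, n = 3), 17.2 ± 5.05% in Akt-MACs, 7.09 ± 2.68% in RACVECs and 5.48 ± 2.06% in MACs. It made up 3.78 ± 2.54% in Akt-liver ECs, 3.05 ± 2.33% in Sox17-RACVECs, 2.98 ± 0.89% in Akt-LECs and 1.03 ± 0.97% in Akt-RACVECs. Cbx6 made up 54.7 ± 4.44% in LSECs, 67.4 ± 8.55% in Akt-MACs and 78.5 to 86.0% on average in the other 6 groups. The share of Cbx7 in LSECs was 26.7 to 29.0%, above that of every other library, of which the highest was Akt-MAC 3 at 22.999%.

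The PRC2 enzymes Ezh1 and Ezh2 took opposite places in LSECs. LSECs held 146, 133 and 109 FPKM of Ezh1 and 15.7, 13.8 and 25.5 FPKM of Ezh2. The other 21 libraries held 27.4 to 112 FPKM of Ezh1, and only Akt-RACVEC 3 at 112 FPKM reached the lowest LSEC library. For Ezh2 the LSECs overlapped MACs and RACVECs, since MAC 1 at 24.6 FPKM and RACVEC 1 at 22.2 FPKM lay below LSEC 3. Akt-liver ECs, the cultured liver counterpart, were at 40.6, 61.7 and 46.1 FPKM of Ezh1 and 107, 33.5 and 56.2 FPKM of Ezh2, and neither gene overlapped its LSEC levels.

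Ezh2 had its highest means in Akt-LECs (111, 49.5 and 95.9 FPKM) and Akt-RACVECs (93.0, 92.3 and 41.5 FPKM). MACs at 24.6, 29.2 and 49.8 FPKM, Akt-MACs at 48.7, 29.6 and 27.3 FPKM, RACVECs at 22.2, 53.2 and 41.5 FPKM and Sox17-RACVECs at 48.0, 41.4 and 73.3 FPKM overlapped. Ezh2 was the only member with more than 1 transcript, and NM_007971 carried most of it, while NM_001146689 was at 0.05 to 12.8 FPKM. Ezh1 was at 47.0, 33.8 and 42.9 FPKM in MACs, 47.4, 47.8 and 61.9 FPKM in Akt-MACs and 31.5, 34.2 and 38.9 FPKM in RACVECs. In Akt-RACVECs (41.3, 32.4 and 112 FPKM), Sox17-RACVECs (41.2, 88.0 and 27.4 FPKM) and Akt-LECs (34.0, 78.7 and 35.8 FPKM), a single library stood above the others. For Sox17-RACVECs this was the library labelled 2.

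The log2 ratio of Ezh1 to Ezh2, each plus 1 FPKM, was 3.14, 3.18 and 2.05 in LSECs, or 4.27-fold to 9.66-fold on the FPKM scale with nothing added. All other libraries lay between -1.68 in Akt-LEC 1 and 1.41 in Akt-RACVEC 3. The group means were 0.60 ± 0.60 in Akt-MACs, 0.30 ± 0.56 in MACs, -0.08 ± 0.56 in RACVECs, -0.18 ± 1.23 in Sox17-RACVECs, -0.27 ± 1.12 in Akt-liver ECs, -0.41 ± 1.59 in Akt-RACVECs and -0.81 ± 1.28 in Akt-LECs (SD, n = 3), so that the spread within the 4 last groups was larger than the distance between them. Without Akt-RACVEC 3 the mean of Akt-RACVECs was -1.32, without Akt-RACVEC 2 it was 0.13, without the library labelled Sox17-RACVEC 2 that of Sox17-RACVECs was -0.80, and without Akt-liver EC 1 that of Akt-liver ECs was 0.29. Leaving out Sox17-RACVEC 3 (0.43), RACVEC 2 (0.20) or MAC 1 (-0.00436) also turned the sign of a group mean.

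**Figure D2:**
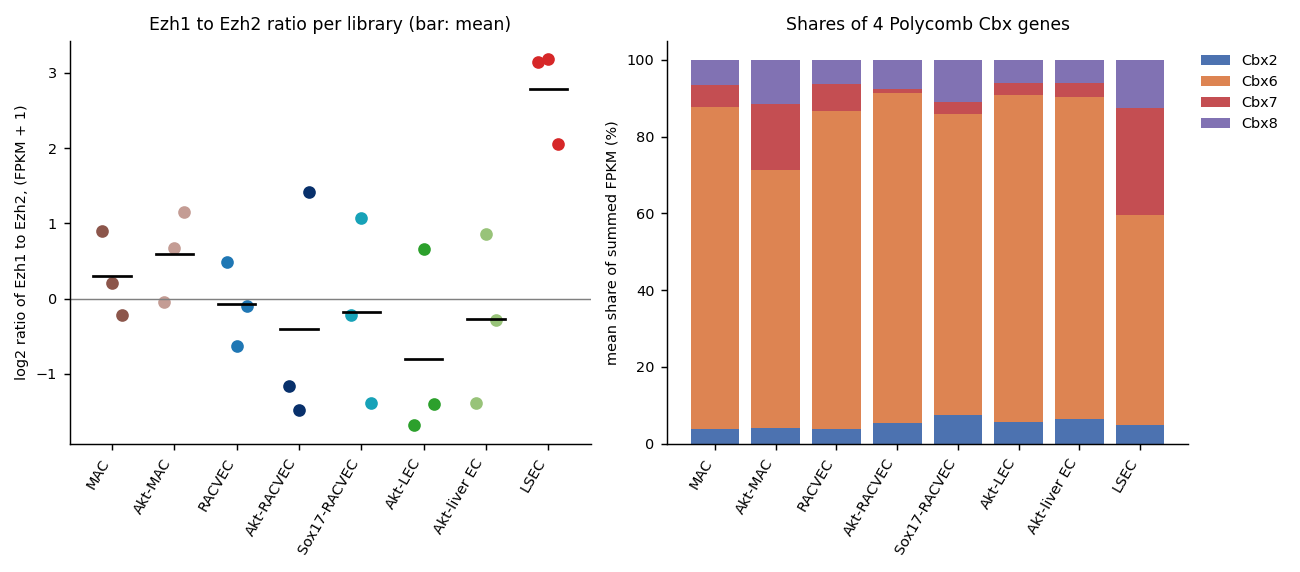
Left, log2 ratio of Ezh1 to Ezh2 (each FPKM + 1) per library, with the group mean as a bar. Right, the mean share (%) of 4 Cbx genes in their summed FPKM by group. LSECs stand above all others in the left panel and have the largest Cbx7 share, 27.9%, in the right panel.

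Genes of dividing cells tracked Ezh2 most closely. The mean log2 level of 10 such genes, among them Mki67 and Top2a, was 4.50 ± 0.84 in LSECs, 5.29 ± 0.39 in Akt-MACs, 5.31 ± 0.57 in MACs and 7.35 ± 0.52 in Akt-LECs, with the other 4 groups at 6.44 to 6.79 on average. Over the 24 libraries its Pearson r with Ezh2 was 0.90, and 0.85 over the 21 libraries without LSECs. It was 0.71 with Cbx2, -0.67 with Ring1, -0.63 with Ezh1 and -0.53 with Cbx7, and that with Ezh1 was -0.36 without LSECs. These libraries share their groups, so the coefficients are descriptions, and the part of cell division in the group differences was not tested.

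**Figure D3:**
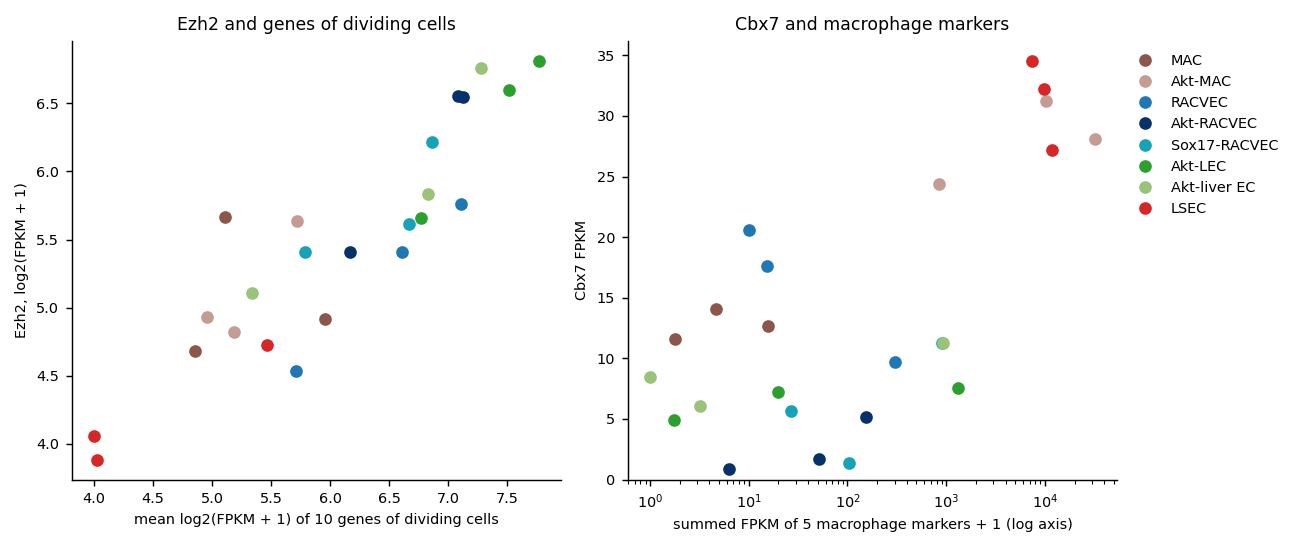
Left, Ezh2 against the mean of 10 genes of dividing cells, both as log2(FPKM + 1). Right, Cbx7 (FPKM) against the summed FPKM of 5 macrophage markers plus 1 on a log axis. Points are the 24 libraries, coloured by group. Ezh2 rises along the dividing-cell axis (r = 0.90), and the 6 libraries with the most Cbx7 are the LSECs and Akt-MACs.

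Of the RING enzymes of PRC1, Ring1 was higher in MACs, Akt-MACs and LSECs than in most libraries of cultured ECs, and Rnf2 was spread widely. Ring1 was at 43.8, 42.8 and 44.6 FPKM in MACs, 48.1, 52.8 and 55.2 FPKM in Akt-MACs and 38.1, 42.1 and 42.1 FPKM in LSECs. In RACVECs (30.9, 22.2 and 27.7 FPKM), Sox17-RACVECs (25.9, 24.04 and 17.1 FPKM), Akt-LECs (22.8, 29.9 and 19.9 FPKM) and Akt-liver ECs (27.4, 22.0 and 21.8 FPKM) every library was lower than those. Akt-RACVECs were spread over that whole range at 26.0, 11.3 and 52.8 FPKM.

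Rnf2 was at 210.3, 173 and 149 FPKM in MACs and at 72.5, 76.8 and 70.2 FPKM in Sox17-RACVECs, its highest and lowest group means. RACVECs were between, at 153, 91.1 and 143 FPKM, and Akt-RACVECs at 111, 90.8 and 80.3 FPKM. The remaining groups overlapped MACs and RACVECs, with Akt-MACs at 207, 121 and 113 FPKM, Akt-LECs at 151, 133 and 63.2 FPKM, Akt-liver ECs at 96.5, 145 and 205 FPKM and LSECs at 184, 129 and 172 FPKM. Akt-MACs and LSECs lay above all Akt-RACVECs, and of these remaining groups only Akt-LECs overlapped Sox17-RACVECs. Ring1 made up 15.0 ± 6.44% of the sum of both enzymes in Akt-liver ECs and 27.4 ± 7.47% in Akt-MACs, its lowest and highest mean shares. Bmi1, the Pcgf partner of these enzymes, had group means of 107 ± 28.5 FPKM in MACs to 168 ± 42.7 FPKM in Akt-RACVECs, and each group overlapped the next in order.

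Group differences were set beside those of all genes with limma on log2(FPKM + 1) over the 24 libraries and Benjamini-Hochberg adjustment over 14964 genes. Called genes are those with an adjusted p under 0.05 whose log2 difference exceeds 1 in size. Because the members were chosen with these contrasts known, their counts of calls are a description. Akt-liver ECs against LSECs had 5 of 9 members called, against 27.0% of all genes, and Akt-RACVECs against Akt-MACs had 4 of 9, against 19.5%. Akt-RACVECs against RACVECs had 1 of 9, called lower, against 0.261% of all genes in either direction and 0.0401% lower. None of the 9 was called in RACVECs against MACs (2.71% of all genes), Akt-MACs against MACs (2.81%), Sox17-RACVECs against RACVECs (0.00668%), Akt-RACVECs against Akt-LECs (0.00668%) or Akt-LECs against Akt-liver ECs (0.0134%). Several of these contrasts share groups, so they are not separate evidence.

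**Figure D4:**
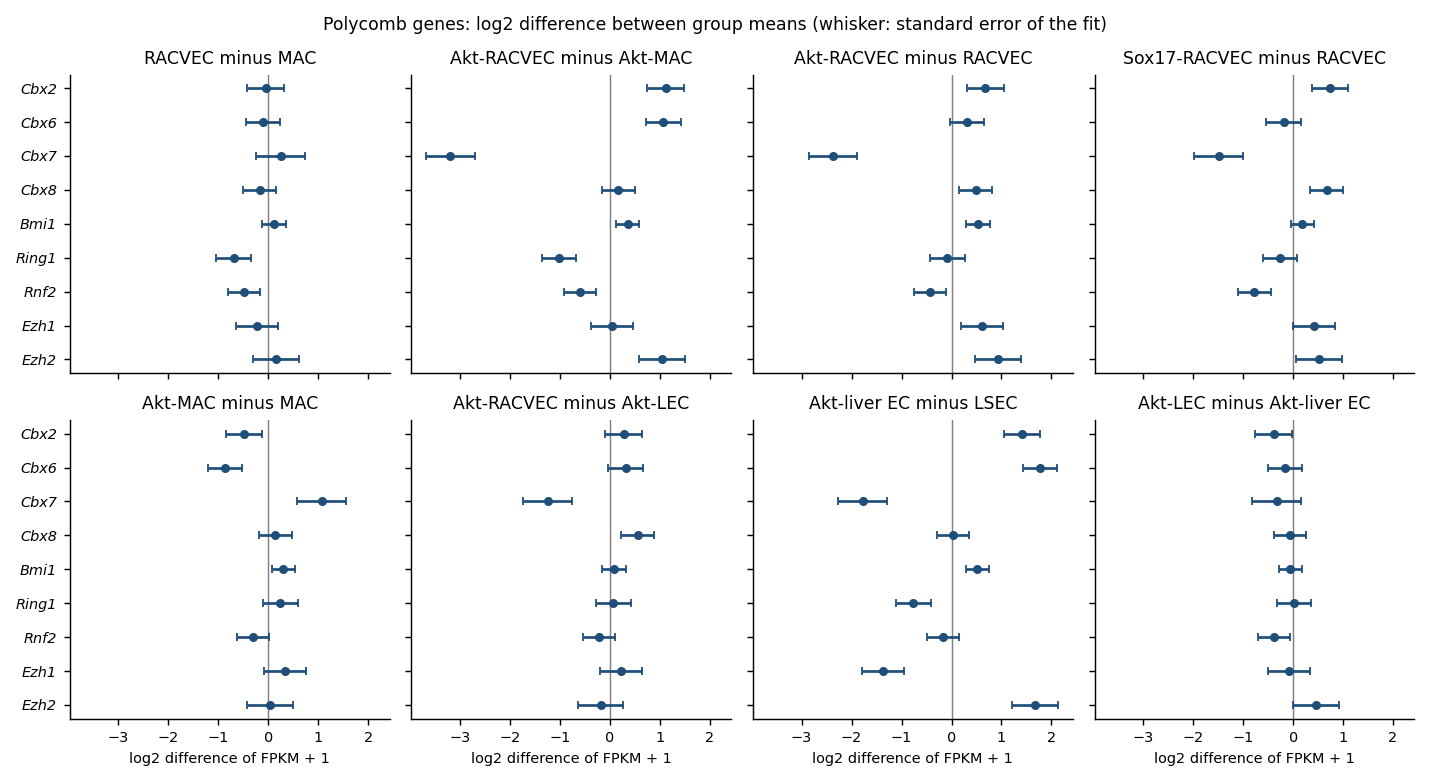
Difference of group means (horizontal axis, log2 of FPKM + 1) of the 9 Polycomb genes in the 8 contrasts, with the standard error of the fit. Cbx7 lies farthest below 0, at -3.19 in Akt-RACVECs minus Akt-MACs and -2.37 in Akt-RACVECs minus RACVECs.

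Conversion without Akt gave no call among the members. The log2 differences of RACVECs minus MACs ran from -0.69 ± 0.35 (SE) for Ring1 to 0.25 ± 0.49 for Cbx7, and Ring1 was the only member whose libraries did not overlap, against 22.0% of all genes. With Akt in both groups, Akt-RACVECs minus Akt-MACs gave 1.12 ± 0.37 for Cbx2 and 1.07 ± 0.34 for Cbx6, called higher, and -3.19 ± 0.49 for Cbx7 and -1.02 ± 0.35 for Ring1, called lower. Ezh2, at 1.04 ± 0.46, was not called. The libraries of Cbx6 and Bmi1 (higher) and of Cbx7 and Rnf2 (lower) did not overlap, 4 of 9 members against 37.4% of all genes. Of these calls, that of Cbx7 held under all 13 alternative limma fits (-3.73 to -1.60), whereas those of Cbx2, Cbx6 and Ring1 were lost under 6, 5 and 8 of them. Leaving out Akt-MAC 3 alone left 1 of the 4 calls, and leaving out Akt-MAC 1, Akt-MAC 2, Akt-RACVEC 1 or Akt-RACVEC 2 left 2. Over all genes the 2924 calls became 1641 to 2511 with a library left out. Cbx2 lost its call with 10 FPKM added in place of 1 (0.59) and without Akt-MAC 2 (0.92), Akt-MAC 3 (0.95), Akt-RACVEC 1 (1.04) or Akt-RACVEC 3 (0.98), and Cbx6 without Akt-MAC 1 (1.09), Akt-MAC 3 (0.77), Akt-RACVEC 2 (1.11) or Akt-RACVEC 3 (0.90). Of the 6 fits without 1 library, Ring1 was called only in that without Akt-RACVEC 3 (-1.54), and without Akt-RACVEC 2 its difference was -0.47. Ezh2 was called without Akt-RACVEC 3 (1.42). The 5 macrophage markers differed in the same contrast, with 4 called lower, and 6 of 10 dividing-cell genes were called higher. The 6 mesenchymal markers, 2 of them called lower, summed to 0.58 to 170 FPKM in Akt-RACVECs and 1218 to 6380 FPKM in Akt-MACs. The 6 endothelial markers, 6 of them called higher, summed to 11878 to 16699 FPKM in Akt-RACVECs and 34.2 to 62.3 FPKM in Akt-MACs. The part of all these genes in the differences of the members was not tested.

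Akt in RACVECs went with the lower Cbx7 given above, the only call. It was lost without RACVEC 1 (-2.27), RACVEC 3 (-2.17), Akt-RACVEC 2 (-2.27) or Akt-RACVEC 3 (-1.99), so the direction stayed but the call rested on all of these libraries. Over all genes the 39 calls became 5, 11, 5 and 27 in these fits. Ezh2 was 0.93 ± 0.46 and Cbx2 0.68 ± 0.37 higher on the log2 scale, both with overlapping libraries. Bmi1 (0.54 ± 0.24) was higher without overlap, which with Cbx7 made 2 of 9 members, against 19.8% of all genes. The 6 mesenchymal markers summed to 862 to 5279 FPKM in RACVECs and 0.58 to 170 FPKM in Akt-RACVECs, with 0 of 6 called. The 6 endothelial markers summed to 1925 to 4274 FPKM in RACVECs and 11878 to 16699 FPKM in Akt-RACVECs, with 2 of 6 called higher. Erg was at 0.90 to 13.8 FPKM in RACVECs and 395 to 1002 FPKM in Akt-RACVECs. The part of these markers and of Erg in the difference of Cbx7 was not tested. The Akt-free and Akt-transduced amniotic libraries also had column headers of different styles in the deposited files, words and dates against single letters. Whether this marks a batch is not stated, and it cannot be told apart from Akt.

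Sox17 in RACVECs went with differences of -1.49 ± 0.49 for Cbx7, 0.74 ± 0.37 for Cbx2, 0.67 ± 0.33 for Cbx8 and -0.77 ± 0.32 for Rnf2 on the log2 scale. Without the library labelled Sox17-RACVEC 2 these were -0.85 ± 0.44, 0.79 ± 0.42, 0.47 ± 0.36 and -0.81 ± 0.37. Cbx2 and Cbx8 were higher and Rnf2 lower without overlap, 3 of 9 members, against 10.6% of all genes. Ezh1 was 0.41 ± 0.42 higher with that library and -0.05 ± 0.42 without it. The mesenchymal markers summed to 5.20 to 734 FPKM in Sox17-RACVECs and 862 to 5279 FPKM in RACVECs, with 0 of 6 called. The endothelial markers summed to 4966 to 15519 FPKM and 1925 to 4274 FPKM, with 0 of 6 called. Akt1 was at 884, 1323 and 916 FPKM in Sox17-RACVECs and 607, 694 and 644 FPKM in RACVECs, and Akt-RACVECs held 872 to 1281 FPKM. The part of these markers and of Akt1 in the differences of the members was not tested.

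Akt-MACs minus MACs gave 3 members higher without overlap, Cbx7 (1.07), Ezh1 (0.34 ± 0.42) and Ring1 (0.24 ± 0.35), and 0 lower, against 14.9% of all genes in either direction. In this contrast 4 of 5 macrophage markers were called higher, with sums of 847 to 32105 FPKM in Akt-MACs and 0.79 to 14.7 FPKM in MACs. The part of these markers was not tested. Akt-RACVECs and Akt-LECs overlapped in all 9 members, where 11.9% of all genes did not, and the log2 differences ran from -1.24 ± 0.49 for Cbx7 to 0.55 ± 0.33 for Cbx8. Akt-LECs and Akt-liver ECs also overlapped in all 9 (7.16% of all genes did not), with differences from -0.39 to 0.46.

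In Akt-liver ECs against LSECs, Cbx6 (1.78 ± 0.34), Ezh2 (1.68 ± 0.46) and Cbx2 (1.41 ± 0.37) were called higher and Cbx7 (-1.78 ± 0.49) and Ezh1 (-1.38 ± 0.42) lower, on the log2 scale. As ratios of mean FPKM, cultured cells held 3.63-fold the Cbx6, 3.58-fold the Ezh2 and 2.93-fold the Cbx2 of LSECs, and 0.275-fold the Cbx7 and 0.383-fold the Ezh1. With Ring1 (-0.76 ± 0.35, not called), 6 of 9 members did not overlap, against 52.6% of all genes. Without Akt-liver EC 1 the calls of Ezh2 (1.25) and Ezh1 (-1.25) were lost and 3 remained, and that of Ezh1 was also lost without LSEC 1 (-1.29). Over all genes the 4045 calls became 3864 without Akt-liver EC 1 and 3401 without LSEC 1. With 10 FPKM added in place of 1, the call of Cbx2 was lost (0.75). LSECs differed from Akt-liver ECs also in hepatocyte and macrophage markers, with 6 of 6 and 5 of 5 called lower in the cultured cells, and so were 2 of 2 erythroid markers tested. Of the dividing-cell genes, 7 of 10 were called higher. Their part in these differences was not tested. The groups further differ in culture, Akt and sorting, which cannot be told apart.

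Of 35 other genes listed for the complexes, 34 were found and tested in the same fit. This list too was drawn up with earlier results of these data known. Its counts and adjusted p-values are therefore not an independent test. In Akt-RACVECs against Akt-MACs 7 of 34 were called higher and 0 lower, against 6.15% and 13.4% of all genes, and the median log2 difference was 0.31, against -0.09 over all genes. By role, 4 of 10 PRC2 partners, 2 of 14 PRC1 partners, 1 of 3 genes of the HP1 family and 0 of 7 opposing enzymes were called.

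Among the PRC2 partners, Suz12, a core subunit that the enzyme needs, rose from 84.8, 79.7 and 77.2 FPKM in Akt-MACs to 173, 292 and 118 FPKM in Akt-RACVECs, by 1.16 ± 0.24 on the log2 scale (limma, adjusted p = 0.00302). Mtf2, an accessory subunit that brings PRC2 to CpG-rich DNA, rose by 1.19 ± 0.25 (adjusted p = 0.00338), and its relative Phf19 rose by 1.89 ± 0.54 (adjusted p = 0.0177) from 5.06, 2.32 and 2.46 to 22.9, 11.4 and 10.8 FPKM. Epop, which joins PRC2 to elongin, rose by 2.11 ± 0.50 (adjusted p = 0.00654) from 12.9, 16.7 and 8.91 to 63.4, 52.9 and 55.2 FPKM. For each of these 4 genes the 2 groups did not overlap. The core partners Eed (0.22 ± 0.23, adjusted p = 0.507), Rbbp4 (0.09 ± 0.22, adjusted p = 0.816) and Rbbp7 (0.56 ± 0.27, adjusted p = 0.135) were not called.

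Of the PRC1 partners, Pcgf2, the closest relative of Bmi1, rose by 1.48 ± 0.36 (limma, adjusted p = 0.00809) from 68.7, 45.7 and 23.7 to 126, 85.0 and 159 FPKM, and Rybp, a subunit of PRC1 without a Cbx protein, by 1.28 ± 0.39 (adjusted p = 0.0255) from 54.0, 66.8 and 50.3 to 121, 142 and 155 FPKM. Cbx1, an HP1 protein of heterochromatin, rose by 1.36 ± 0.25 (adjusted p = 0.00120). Leaving out Akt-RACVEC 2 ended the calls of Suz12 (0.82), Mtf2 (0.98) and Rybp (1.26) and left 4 of 7. Over all genes the calls higher went from 921 to 628. Rybp also lost its call without Akt-MAC 1 (1.24), Akt-MAC 2 (1.40), Akt-MAC 3 (1.19) or Akt-RACVEC 3 (1.198), and Phf19 without Akt-MAC 2 (1.73), Akt-MAC 3 (1.76) or Akt-RACVEC 1 (1.56). The calls of Epop and Cbx1 held under all 13 alternative fits, with adjusted p of 0.00584 to 0.0275 and 0.000862 to 0.00926.

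In Akt-RACVECs against RACVECs, Cbx1 was the only 1 of 34 called, against 0.261% of all genes. It was at 49.7, 66.0 and 82.0 FPKM in RACVECs and 189, 181 and 165 FPKM in Akt-RACVECs, a rise of 1.45 ± 0.25 (limma, adjusted p = 0.0254, and 0.0158 to 0.138 under the alternative fits). The call was lost without RACVEC 1 (1.26) or Akt-RACVEC 2 (1.44), and in each of these fits the calls over all genes went from 39 to 5. The difference between the effects of Akt in RACVECs and in MACs passed the test for 0 of the 34.

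In Akt-liver ECs against LSECs, 8 of 34 were called higher and 1 lower, against 14.1% and 12.9% of all genes, with a median log2 difference of 0.51 against 0.08. The 8 include Asxl3, which passed the filter on low values through Akt-liver ECs. The largest was that of Epop, at 59.5, 42.3 and 83.3 FPKM in Akt-liver ECs and 1.10, 1.61 and 1.67 FPKM in LSECs, a difference of 4.63 ± 0.50 (limma, adjusted p = 1.07e-06). Pcgf6, a Pcgf protein of PRC1 without a Cbx, was at 39.6, 40.3 and 56.4 FPKM against 10.02, 10.6 and 6.02 FPKM (2.25 ± 0.31, adjusted p = 2.48e-05). Scmh1, a PRC1 component (1.26 ± 0.31, adjusted p = 0.00393), and Kdm2b, which binds unmethylated CpG and brings PRC1 there (1.25 ± 0.30, adjusted p = 0.00381), were called higher as well.

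Nearer the threshold were Phc1, a PRC1 protein that forms polymers (1.01 ± 0.35, limma adjusted p = 0.0327), Rbbp7 (1.02 ± 0.27, adjusted p = 0.00659) and Phf19 (1.44 ± 0.54, adjusted p = 0.0457), whose calls were lost under 7, 7 and 11 of 14 alternative fits. Without a library of either group these differences ran from 0.92 to 1.12 for Phc1, 0.90 to 1.21 for Rbbp7 and 1.07 to 1.96 for Phf19. Asxl3, a cofactor of the H2A deubiquitinase, was listed at 0 in all LSECs and at 0.18, 6.01 and 17.1 FPKM in Akt-liver ECs. It was not called without Akt-liver EC 3. Its mean over the 24 libraries was 1.26 FPKM and its median 0, so it passed the filter on low values through Akt-liver ECs. The call of Asxl3 is therefore a description. Phf1, a PRC2 accessory subunit, was the only gene called lower, at 26.9, 33.6 and 29.4 FPKM against 81.5, 114 and 61.4 FPKM in LSECs (-1.45 ± 0.36, adjusted p = 0.00438). Suz12 was 0.97 ± 0.24 higher (adjusted p = 0.00474), just under the threshold of size and called without Akt-liver EC 1 (1.04), Akt-liver EC 2 (1.07) or LSEC 1 (1.08), and Eed (0.36 ± 0.23, adjusted p = 0.237) and Rbbp4 (0.04 ± 0.22, adjusted p = 0.875) were not called.

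**Figure D5:**
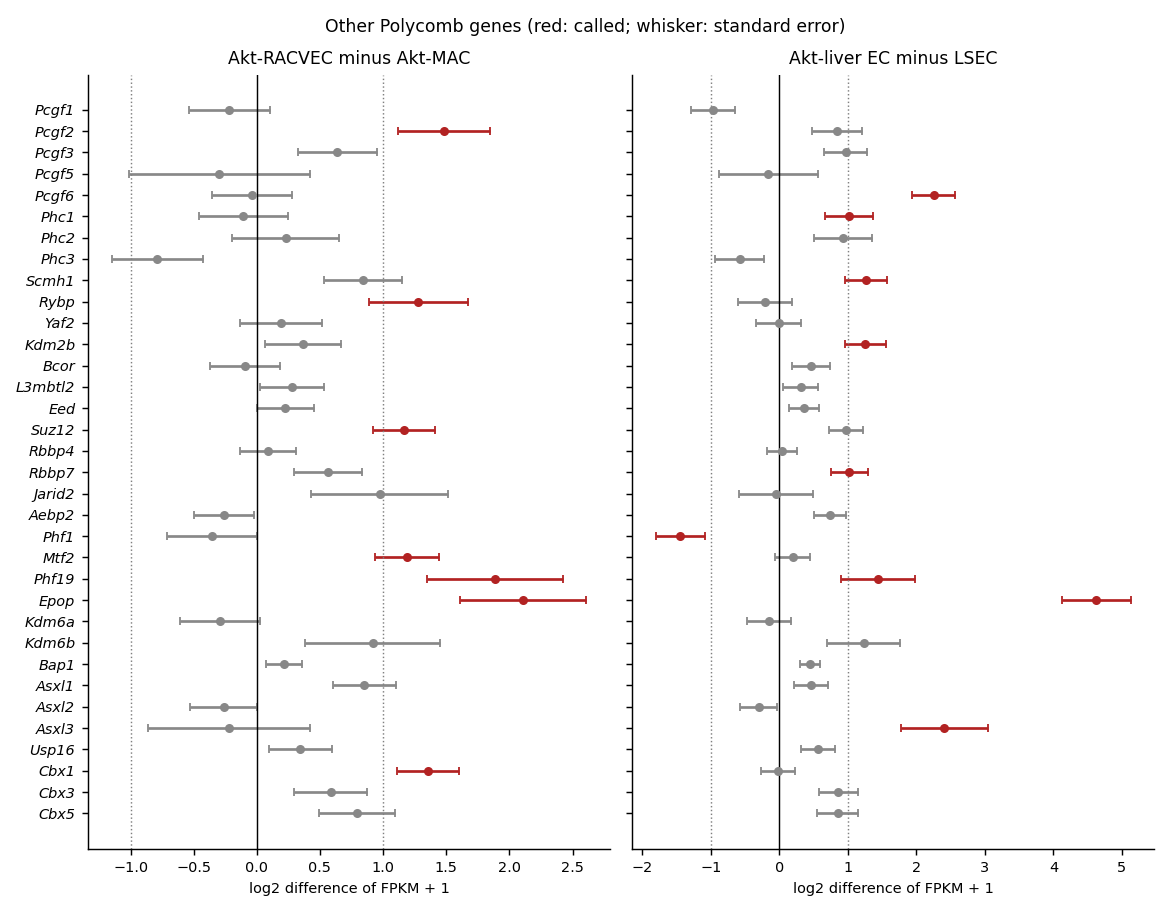
Log2 difference (FPKM + 1, with standard error) of the 34 other Polycomb genes in Akt-RACVECs minus Akt-MACs (left) and Akt-liver ECs minus LSECs (right). Red marks called genes, 7 on the left and 9 on the right, and dotted lines mark a log2 difference of 1 and -1.

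In the other 5 contrasts limma called 0 of the 34. At an unadjusted p below 0.05 there were 4 in RACVECs against MACs, 0 in Sox17-RACVECs against RACVECs and 1 in Akt-MACs against MACs. There were 3 in Akt-RACVECs against Akt-LECs and 1 in Akt-LECs against Akt-liver ECs. The share of all genes with an unadjusted p below 0.05 is not given here. These counts are therefore a description, and whether they differ from that share was not tested. In each of these contrasts 0 of the 34 met the criterion of the study's methods.

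Cdkn2a and Cdkn2b, cell cycle inhibitors and known targets of Polycomb repression, lie outside the complexes. Cdkn2a was at 12.4, 10.7 and 18.3 FPKM in LSECs and 205, 1625 and 1771 FPKM in Akt-liver ECs, a difference of 5.86 ± 0.90 on the log2 scale (limma, adjusted p = 6.88e-05). Cdkn2b was at 7.08, 8.96 and 8.71 FPKM in LSECs and 155, 518 and 216 FPKM in Akt-liver ECs (4.82 ± 0.65, adjusted p = 1.61e-05). MACs held 2552, 822 and 1570 FPKM of Cdkn2a and 710.5, 325 and 992 FPKM of Cdkn2b. Cdkn2b was lower in Akt-RACVECs (84.8, 149.5 and 26.3 FPKM) than in Akt-MACs (651, 305 and 389 FPKM) by -2.60 ± 0.65 (adjusted p = 0.00877), while Cdkn2a (-1.47 ± 0.90, adjusted p = 0.250) was not called there. Cdkn2a sums the transcripts NM_001040654 and NM_009877. In Akt-RACVECs the first was at 285, 1023 and 0.01 FPKM and the second at 228, 290 and 136 FPKM. The first was also at 0.01 FPKM in the library labelled Sox17-RACVEC 2.

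For each member the 3 genes with the most similar log2 levels over the 24 libraries were sought among 11698 genes. Ezh2 was closest to Fignl1 (r = 0.92), Kif18b (r = 0.92), a mitotic kinesin, and Dnmt1 (r = 0.92), the maintenance DNA methyltransferase. Cbx2 was closest to Eftud2 (r = 0.83), Foxk2 and Fignl1, and Ezh1 to Bfar (r = 0.91), Zmym5 and Numb. Cbx7 was closest to Sowahc (r = 0.89), Slc41a3 and Sgpp1, and Cbx6 to Zfp423 (r = 0.87), Cavin1 and Fstl1. Ring1 was closest to Acaa1a (r = 0.86), Spsb2 and Phyhd1, Rnf2 to Spry1 (r = 0.85), E2f5 and Klf9, Bmi1 to Cyb5b (r = 0.81), Ephb1 and Lims1, and Cbx8 to Scrn2 (r = 0.72), Tiparp and Dph3. These libraries fall into 8 groups, and a likeness of levels across them is a description.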

How the data were processed

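RNA of 24 samples, 3 in each of 8 groups taken from the sample titles, was extracted with Trizol per the labels, whereas the methods of the study name a column kit (RNAeasy). It was sequenced by the authors as paired reads of 51 bases from TruSeq libraries. Alignment to mm9 was by TopHat. The deposited values are FPKM that the authors computed in Cufflinks for each RefSeq transcript, normalized to the upper quartile and corrected for sequence bias. Versions and annotation release are not given in the sources used here. Read numbers are unknown, so the only measure of precision is the spread among 3 libraries, and an FPKM of 0 may be a failed estimate.

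Of 27583 transcripts, 26934 were joined to current symbols and summed, giving 22282 genes. Depositors' labels do not say that libraries beyond MACs came from separate animals. The study's figure legends call its RNA sequencing samples individual isolates, without naming an animal for each. The p-values measure the spread between libraries, and how much of it is technical is unknown. Of all pairs of libraries, 0 were identical. The summed FPKM was 1689486 to 2317294, and the median log2 shift of a library from the mean of all was -0.298 to -0.0177. A single limma fit (version 3.58.1, R 4.3.3) to log2(FPKM + 1) with mean-dependent variance served all contrasts. Tests were two-sided, and the 14964 genes averaging 1 FPKM or more were adjusted together (Benjamini-Hochberg). The pseudocount of 1 understates differences of low genes. The procedure was tested on simulated data. Alternatives were pseudocounts of 0.1 and 10, other filters, fits of 2 groups, a replicate block, rescaled libraries, each library left out, the criterion of the study's methods and, added after seeing the data, leaving out Akt-LEC 1 and Akt-liver EC 1 together. Other steps ran in Python 3.11.15 (matplotlib 3.10.9, numpy 2.4.6, scipy 1.17.1, pandas 2.3.3).

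The members and lists were chosen with earlier results of these data known. Named are the members, the other Polycomb genes called in any contrast, the PRC2 core, Cdkn2a, Cdkn2b, the 3 genes most like each member, and defining markers. A Polycomb gene is not reported here and was left out of the list and of the Cbx shares. Positions are from GENCODE M1 and promoters from RefSeq.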

Additional observations from a re-analysis of the deposited data

Results flagged for a closer look

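The Akt contrast of Cbx7 went in opposite directions in the 2 amniotic backgrounds, with every library of a group on the same side. Cbx7 was 1.07 higher in Akt-MACs than in MACs on the log2 scale (24.4 to 31.2 against 11.6 to 14.1 FPKM) and differed by -2.37 in Akt-RACVECs minus RACVECs (0.85 to 5.15 against 9.74 to 20.6 FPKM). The difference between these effects was not tested, since Cbx7 was chosen with these values known. Of 5 macrophage markers, 4 were called higher in Akt-MACs than in MACs, and their part in the first difference was not tested. Groups of 3 libraries are too small for the check of single libraries far from the rest, which was not made.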

How the results depend on the processing

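Of the 72 differences of members, 46 kept their sign under every alternative, and 9 of 648 alternative values moved by more than 1 SD. Counts of called members that moved by more than 1.5 times are given here, and the causes were not tested unless fewer libraries entered the fit. In Akt-RACVECs against Akt-MACs the 4 members became 2 with a pseudocount of 10, 1 in a fit of only these 2 groups, 2 by the study's criterion and 1 to 3 with a library left out. Over all genes the 2924 calls became 2160 with that pseudocount and 1013 in that fit. With a library left out they were 1641 to 2511. Counts over all genes by the study's criterion are not given here. In Akt-RACVECs against RACVECs the 1 member became 0 with a pseudocount of 0.1, without a filter and in the fit of 2 groups, and 0 to 1 with a library left out. Over all genes the 39 calls became 36, 37 and 9 in that order, and 5 to 93 with a library left out. In Akt-MACs against MACs the 0 became 1 by the study's criterion. In Akt-liver ECs against LSECs the 5 became 3 by that criterion, 3 without Akt-LEC 1 and Akt-liver EC 1, and 3 to 5 with a library left out. Over all genes the 4045 calls became 3902 without both and 3401 to 3864 with a library left out. Of the other Polycomb genes, the 7 in Akt-RACVECs against Akt-MACs became 3 in the fit of 2 groups, 4 by the study's criterion and 4 to 7 with a library left out. The 1 in Akt-RACVECs against RACVECs became 0 in the fit of 2 groups, 2 by the criterion and 0 to 1 with a library left out. The 9 in Akt-liver ECs against LSECs became 4 with a pseudocount of 10, 5 by the criterion and 7 to 11 with a library left out. The 0 in RACVECs against MACs became 1 (Phf19) without MAC 2, and the 0 in Akt-LECs against Akt-liver ECs became 1 (Asxl3) without Akt-liver EC 1, alone or with Akt-LEC 1. Over all genes the 405 calls in RACVECs against MACs became 747 without MAC 2. The 2 in Akt-LECs against Akt-liver ECs became 16 without Akt-liver EC 1 and 28 without both. With a pseudocount of 10 the 4045 in Akt-liver ECs against LSECs became 3047.

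Libraries with the same number share only that number, since in no contrast did all 3 pairs correlate above 0.1 (mean r of -0.111 to 0.296). A replicate block left the counts of members at 4, 1 and 5 in the 3 contrasts with calls, and those of the other Polycomb genes at 7, 1 and 8. The depth of the libraries is unknown, and with 3 libraries a group the SD of Ezh1 and Ezh2 in cultured cells was often as large as their differences.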
